A study of Mus musculus with 2 samples.

Results

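Klk6-positive mature oligodendrocytes of the lateral striatum were described here after a stroke in young mice, on the injured side (ipsilateral) and on the opposite side (contralateral). Members were cell barcodes with at least 500 detected genes, at most 15% of UMIs from mitochondrial genes, and at least 40 UMIs of Mobp, Mog and Mal together per 10000 UMIs. They also carried at least 1 UMI of Klk6 and 0 UMIs of the injury-response genes C4b and Serpina3n. A UMI (unique molecular identifier) stands for 1 captured RNA molecule. Of 4841 barcodes in all, 288 were members, 120 of 2066 contralateral and 168 of 2775 ipsilateral ones. They were compared with the 949 mature barcodes that had 0 UMIs of all 3 genes, 411 contralateral and 538 ipsilateral. Those are called Klk6-zero below.

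Both groups came from male C57/BL6 mice that underwent MCAO, a 60-minute block of the middle cerebral artery on postnatal day 10, and then 2 weeks of reperfusion. The contralateral side is the uninjured hemisphere of the operated animals, not tissue of unoperated ones. Striata of 3 animals were pooled per side before cells with A2B5, O4 or both on their surface were sorted. These antigens mark early glial progenitors and later oligodendrocyte stages. Each side was made into 1 droplet library. The differences below therefore have no replicate check and no test. All intervals are 95% intervals, and they cover counting error only.

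Oligodendrocytes wrap axons in myelin, and mature ones differ in the genes they express. Klk6 encodes kallikrein 6, a secreted serine protease of the kallikrein family that is made by mature oligodendrocytes, cleaves extracellular and myelin proteins, and can act on protease-activated receptors. In mouse brain and spinal cord, a Klk6 and Anxa5 group of mature oligodendrocytes has been set apart from a group rich in Ptgds and Il33.

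The contralateral library held 36063045 UMIs and the ipsilateral one 54788795, with 0 barcode sequences in common. Members had a median of 28876 UMIs on the contralateral and 31794.5 on the ipsilateral side, against 27744 and 28310 in Klk6-zero barcodes. Median mitochondrial shares were 6.30% and 6.15% in members and 6.31% and 6.28% in Klk6-zero barcodes. The median of Mobp, Mog and Mal together was 188 UMIs per 10000 in contralateral and 187 in ipsilateral members, against 219 and 213. The rule's maturity threshold cut few barcodes: 1 contralateral and 15 ipsilateral mature barcodes lay at 40 to under 60 UMIs per 10000, and 5 and 10 lay just below, at 20 to under 40.

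Klk6 was spread unevenly over its carriers. Of the contralateral members, 50 had 1 Klk6 UMI, 44 had 2 to 4, and 26 had 5 or more. Of the ipsilateral members, 80 had 1, 50 had 2 to 4, and 38 had 5 or more. The median was 2 UMIs in both libraries, and the highest barcode had 49 on the contralateral and 89 on the ipsilateral side. Barcodes with 5 or more UMIs held 70.6% of the contralateral and 75.0% of the ipsilateral Klk6 UMIs of the members. Summed over members, Klk6 stood at 140 and 150 CPM (UMIs of a gene scaled to a fixed total per library and class), a level fixed in part by the rule.

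Members made up the same share of mature barcodes without C4b and Serpina3n on both sides, within counting error. The share was 22.6% on the contralateral side (120 of 531, 95% exact binomial interval 19.1 to 26.4) and 23.8% on the ipsilateral side (168 of 706, 20.7 to 27.1). The difference was 1.20 percentage points (Newcombe interval -3.70 to 6.01). After thinning every barcode to 10000 UMIs, the shares were 13.8% and 13.3%, a difference of -0.44 points (-4.58 to 3.60). That step left out 16 contralateral and 54 ipsilateral shallower barcodes.

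The shares were far above those in barcodes outside the mature class. There, 0.456% of contralateral barcodes (6 of 1315) and 3.13% of ipsilateral ones (45 of 1438) had a Klk6 UMI. At least 2 Klk6 UMIs were found in 0 and 3 of these barcodes. In barcodes with endothelial markers, which should lack Klk6, it was found in 0.552% and 1.60%; these barcodes had median totals of 8262 and 8607 UMIs. Mature barcodes that the rule left out for C4b or Serpina3n had Klk6 in 28.4% of contralateral (19 of 67, 18.0 to 40.7) and 47.6% of ipsilateral cases (172 of 361, 42.4 to 52.9). With these kept, the Klk6 share of all mature barcodes was 23.2% against 31.9%, 8.62 points higher on the ipsilateral side (4.07 to 13.03). The equal shares thus hold for the class without C4b and Serpina3n as defined by the rule.

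**Figure D1:**
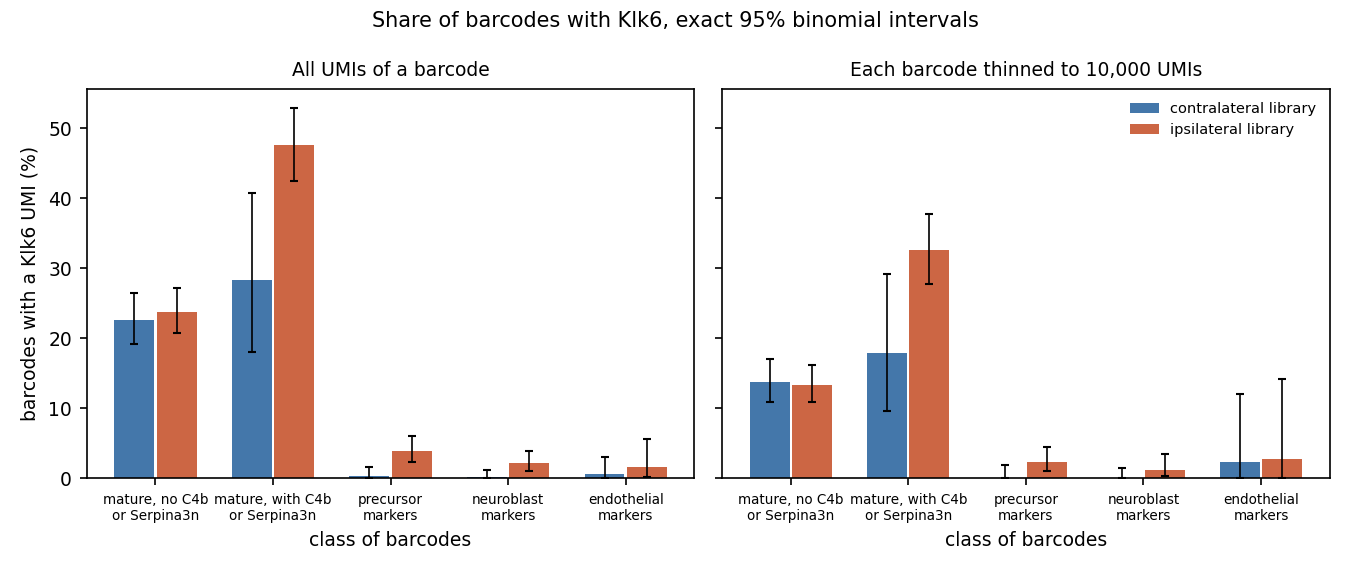
Share of barcodes with at least 1 Klk6 UMI (vertical axis, percent) in 5 classes of barcodes, with all UMIs (left) and after thinning to 10000 UMIs (right). Bars are single libraries and error bars exact 95% binomial intervals; in mature barcodes without C4b and Serpina3n the bars stand at 22.6% and 23.8%, and in mature barcodes with them at 28.4% and 47.6%.

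Klk6 lies on mouse chromosome 7 at chr7:43824499-43832030 on the plus strand (mm10), and S100b and Ptgds, which stood among the highest and lowest genes relative to Klk6-zero barcodes, lie at chr10:76253853-76261159 and, on the minus strand, at chr2:25466709-25470046. Their promoter windows of 300 bases are shown for the gene of the rule, a gene higher in members and a gene lower in them. Sequences are RefSeq's, on GRCm38.p6, from chr7:43824294-43824593 (plus strand, the first of 2 Klk6 windows), chr10:76253586-76253885 (plus) and chr2:25469700-25469999 (minus). Capitals mark each match, on either strand, to the core letters ACAANG bound by SOX factors, a family with members needed for oligodendrocyte maturation.
Klk6: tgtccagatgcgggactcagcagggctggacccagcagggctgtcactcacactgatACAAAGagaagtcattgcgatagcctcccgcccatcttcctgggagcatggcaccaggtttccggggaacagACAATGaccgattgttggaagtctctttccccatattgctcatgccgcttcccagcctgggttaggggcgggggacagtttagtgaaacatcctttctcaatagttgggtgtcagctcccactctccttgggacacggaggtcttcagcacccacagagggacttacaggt
S100b: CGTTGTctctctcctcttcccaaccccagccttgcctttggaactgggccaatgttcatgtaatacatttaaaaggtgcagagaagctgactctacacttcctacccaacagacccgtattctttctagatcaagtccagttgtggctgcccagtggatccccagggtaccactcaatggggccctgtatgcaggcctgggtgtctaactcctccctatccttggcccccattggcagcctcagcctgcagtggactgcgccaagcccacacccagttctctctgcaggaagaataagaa
Ptgds: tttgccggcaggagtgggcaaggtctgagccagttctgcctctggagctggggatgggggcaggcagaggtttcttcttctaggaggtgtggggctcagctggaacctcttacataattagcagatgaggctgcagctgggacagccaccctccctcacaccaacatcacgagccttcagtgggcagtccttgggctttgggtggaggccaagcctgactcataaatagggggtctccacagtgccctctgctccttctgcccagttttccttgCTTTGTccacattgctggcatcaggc
The first Klk6 window held 2 matches, the S100b window 1 and the Ptgds window 1. Of windows not shown, the second Klk6 window held 0 and the Anxa5 window 0. The motif is common: 41.2% of 32851 promoter windows of this length held it. It was present in 34.9% of 63 windows of genes higher in members and in 38.1% of 42 windows of genes lower in members. A core of the myelin regulatory factor MYRF (CTGGCAC or CTGGTAC, both strands) was present in 7.10% of all windows, 4.76% of the former and 19.0% of the latter (8 of 42). The E-box CAGCTG was present in 16.3%, 15.9% and 28.6% of these sets. The sets hold 44 and 29 genes with a window, so a few windows move the shares by several points.

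Beyond Klk6, members differed from Klk6-zero barcodes of their own library in a limited set of genes, led by the membrane protein gene Pmp22, the calcium-binding S100b and Anxa5, and the ion channel gene Hcn2, all higher. The secreted signal Cxcl12, the prostaglandin synthase Ptgds and the junctophilin Jph4 were lower. Members were summed per library, scaled to CPM, and compared as a log2 ratio after adding 5 CPM to both sides. A gene was called when the ratio was at least 1.5-fold in the same direction in both libraries. Of 5549 genes tested, 59 were called higher (1.06%) and 36 lower (0.649%). The median ratio over all genes was 0.01 contralateral and 0.02 ipsilateral, so the called genes moved against an otherwise level background. In the contralateral library alone 88 genes passed 1.5-fold higher, and in the ipsilateral library 89. The 59 shared genes are 67.0% and 66.3% of these lists. Lower genes were 92 and 44, and the 36 shared ones are 39.1% and 81.8% of these. No gene (0) passed the fold in opposite directions. The ratios come from the same barcodes that the Klk6 count sorted, and barcodes of a library are not replicates.

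Pmp22, a tetraspan membrane protein best known from the myelin of peripheral nerves, had the largest ratio. It stood at 252 CPM in contralateral members (95% exact Poisson interval 237 to 268) against 33.6 in Klk6-zero barcodes, and at 268 (255 to 282) against 42.4 on the ipsilateral side. The log2 ratios were 2.74 and 2.53. It had a UMI in 75.8% of contralateral members against 28.5%, and in 68.5% of ipsilateral members against 32.0%. At 10000 UMIs per barcode the shares were 63.2% against 15.8% and 57.7% against 17.8%. Genes of Schwann cells, the myelinating cells of peripheral nerves, stayed low. Their 4 markers summed to 2.52 and 4.20 CPM in members, against 2.30 and 2.42 in Klk6-zero barcodes. Pmp2 was at 0 in both classes of both libraries.

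Calcium-binding proteins followed. S100b, a calcium-binding protein of glia, stood at 699 CPM in contralateral members against 145 (log2 ratio 2.23), and at 564 against 153 on the ipsilateral side (1.85). Anxa5, annexin A5, which binds phosphatidylserine in a calcium-dependent way and is one of the marker genes the rule did not use, stood at 118 against 33.1 CPM (1.69) and at 109 against 38.3 (1.39). All 6 tested genes of the annexin and S100 list were above 0 in both libraries, and 3 were called higher, among them S100a6 at 0.98 and 1.06. The list's median ratio was 0.81 in both libraries, against 0.01 and 0.02 over all genes; 10 of its 16 genes were too low to be tested.

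Hopx, the other marker gene outside the rule and a small homeodomain protein, was too low for the test. It stood at 3.27 CPM in contralateral members (13 UMIs) against 1.48, and at 4.90 (28 UMIs) against 1.14. It had a UMI in 7.5% of contralateral members against 3.65% of Klk6-zero barcodes, and in 13.1% of ipsilateral members against 2.97%. At equal depth these shares were 3.42% against 1.26% and 5.95% against 1.65%. Both Hopx and Anxa5 thus leaned the way the label gives, Anxa5 past the fold and Hopx on few UMIs. The myelin genes of the rule kept or lost level: Mobp ratios were -0.03 and -0.06, Mog ratios 0.03 and -0.04, and those of Mal, a myelin proteolipid, -0.44 and -0.32.

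Hcn2, a cation channel opened by hyperpolarization, stood at 241 CPM against 97.2 in the contralateral library (1.27) and at 378 against 127 in the ipsilateral one (1.54). Hapln2, which links hyaluronan to proteoglycans at the nodes of Ranvier, stood at 353 against 123 CPM (1.49) and 331 against 126 (1.36). Spock3, a testican proteoglycan of the extracellular matrix, had ratios of 1.38 and 1.14. Of 13 genes of the axon-glia adhesion list, 0 were called, with Opcml at 0.54 and 0.43 and Nfasc at -0.53 and -0.25. Of 12 channel and transporter genes, Hcn2 was the only 1 called, and the potassium channel genes Kcna1, Kcna2 and Kcna6 had ratios between -0.48 and -0.25.

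Selenop, which carries selenium in secreted form, stood at 906 against 333 CPM (1.43) and 940 against 451 (1.05). Mgst3, a microsomal glutathione transferase, had ratios of 1.71 and 1.37, and Plin3, a lipid droplet coat protein, 1.24 and 1.16. Gng11, a G-protein gamma subunit, had ratios of 1.30 and 1.05, and Tln2, talin 2, which couples integrins to actin, 1.15 and 1.26. Other genes called higher were Cyp27a1, a sterol hydroxylase, Cdkn1c, a cell cycle inhibitor, Fgf1, a fibroblast growth factor, and the laminin-binding integrin subunit gene Itgb4.

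Of 4 tested genes of the list of kallikreins, plasminogen activators, protease-activated receptors and serine protease inhibitors, Klk6 left out, 1 was called higher, the inhibitor gene Serpinb1a. Serpinb1a, an intracellular inhibitor of serine proteases, stood at 166 against 68.2 CPM (1.23) and 164 against 72.8 (1.12). About 10.1% of its sequence words are shared with other genes, most with Serpinb1c, so some reads could be split between copies. The 8 other kallikrein genes of the list had at most 1.05 CPM in members, the highest being Klk9. The protease-activated receptor genes stood at 1.01 and 1.58 CPM for F2r and at or below 0.252 for F2rl1, F2rl2 and F2rl3. Plat, tissue plasminogen activator, was at 79.5 against 103 CPM (-0.36) and 100 against 117 (-0.21), below the fold.

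The genes called lower included markers of the other named group. Ptgds, prostaglandin D synthase, stood at 658 CPM in contralateral members against 2261 in Klk6-zero barcodes (-1.77), and at 1315 against 2774 ipsilaterally (-1.07). Its UMIs were concentrated: 1 contralateral member held 30.0% of them, and the top 12 contralateral members held 85.7% and the top 17 ipsilateral ones 69.7%. Jph4, a junctophilin that ties the endoplasmic reticulum to the plasma membrane, stood at 16.6 against 56.4 CPM (-1.51) and 27.5 against 61.3 (-1.03). Il33, a cytokine of the interleukin-1 family, was at 5.54 against 18.0 CPM contralaterally and at 10.9 against 9.75 ipsilaterally, and was too low for the test.

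The Ptgds and Il33 list did not move as a block. Apod, apolipoprotein D, was higher in members, at 3460 against 2117 CPM (0.71) and 3370 against 2198 (0.62). Car2, carbonic anhydrase 2, had ratios of -0.06 and -0.03, and Grm3, a metabotropic glutamate receptor, 0.03 and 0.08. Of its 5 tested genes, 1 was called higher and 2 lower.

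Cxcl12, a chemokine that binds Cxcr4, was the lowest gene in the contralateral library, at 8.56 CPM (5.93 to 12.0) against 78.5, a ratio of -2.62. On the ipsilateral side it stood at 27.7 (23.5 to 32.3) against 61.3, a ratio of -1.02. Synpr, synaptoporin, a vesicle membrane protein, had ratios of -1.498 and -1.37. Plekha1, a phosphoinositide-binding adaptor, fell from 442 to 217 CPM between the classes contralaterally (-1.01) and stood at 255 against 471 ipsilaterally (-0.88). Btbd16, Prickle1, Slc9a3r2, Camk2n1, Ttyh1 and Itgad were also among the 12 lower genes chosen by the naming rule, with ratios from -1.70 to -1.18 contralaterally and -1.13 to -0.64 ipsilaterally.

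**Figure D2:**
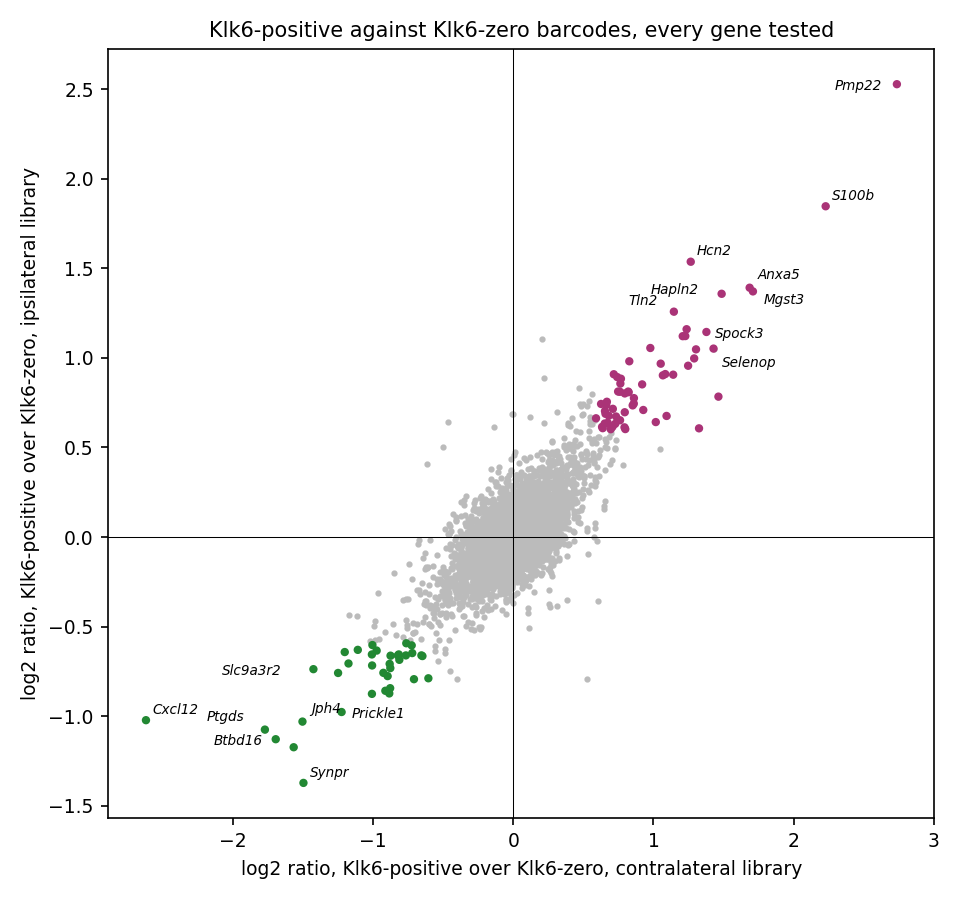
Log2 ratio of Klk6-positive over Klk6-zero barcodes for each gene tested, contralateral library on the horizontal and ipsilateral on the vertical axis, after adding 5 CPM. Grey points are genes not called, purple the genes called higher and green those called lower; the genes of the rule are not drawn, not every named gene is labelled, and Pmp22 lies farthest from the centre at 2.74 and 2.53.

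Levels of the named genes were also listed by the number of Klk6 UMIs, the value the rule used. Of the 12 named higher genes, 11 stood higher at each step from 0 to 1, to 2 to 4, to 5 or more Klk6 UMIs in both libraries; Serpinb1a was the exception. Pmp22 went from 33.6 through 181 and 196 to 405 CPM contralaterally, and from 42.4 through 91.2 and 300.0 to 582 ipsilaterally. S100b reached 1148 and 1271 CPM in barcodes with 5 or more Klk6 UMIs, and Anxa5 209 and 229. Some neighbouring steps overlapped within counting error, such as Pmp22 and Hcn2 between 1 and 2 to 4 UMIs in the contralateral library. These genes were chosen on the same ratio in the same barcodes, so a rise above 0 Klk6 UMIs for members as a whole was fixed by that choice. The groups were also cut on Klk6, so the steps are a description and no separate support.

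Of the 12 named lower genes, Cxcl12, Slc9a3r2, Plekha1 and Ttyh1 (4 of 12) fell at each step in both libraries. Cxcl12 went from 78.5 through 15.3 and 5.86 to 3.41 CPM contralaterally, and from 61.3 through 49.1 and 12.2 to 3.67 ipsilaterally. Mal, a gene of the rule, went from 13619 CPM at 0 to 7818 at 5 or more contralaterally and from 14024 to 7426 ipsilaterally. Ptgds was lowest at 2 to 4 UMIs, at 115 and 510 CPM, and stood at 856 and 1088 CPM at 5 or more. Sequencing depth also differed between these groups: the median was 28041 UMIs at 1 Klk6 UMI and 36120 at 5 or more contralaterally, and 31813.5 and 32780 ipsilaterally.

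**Figure D3:**
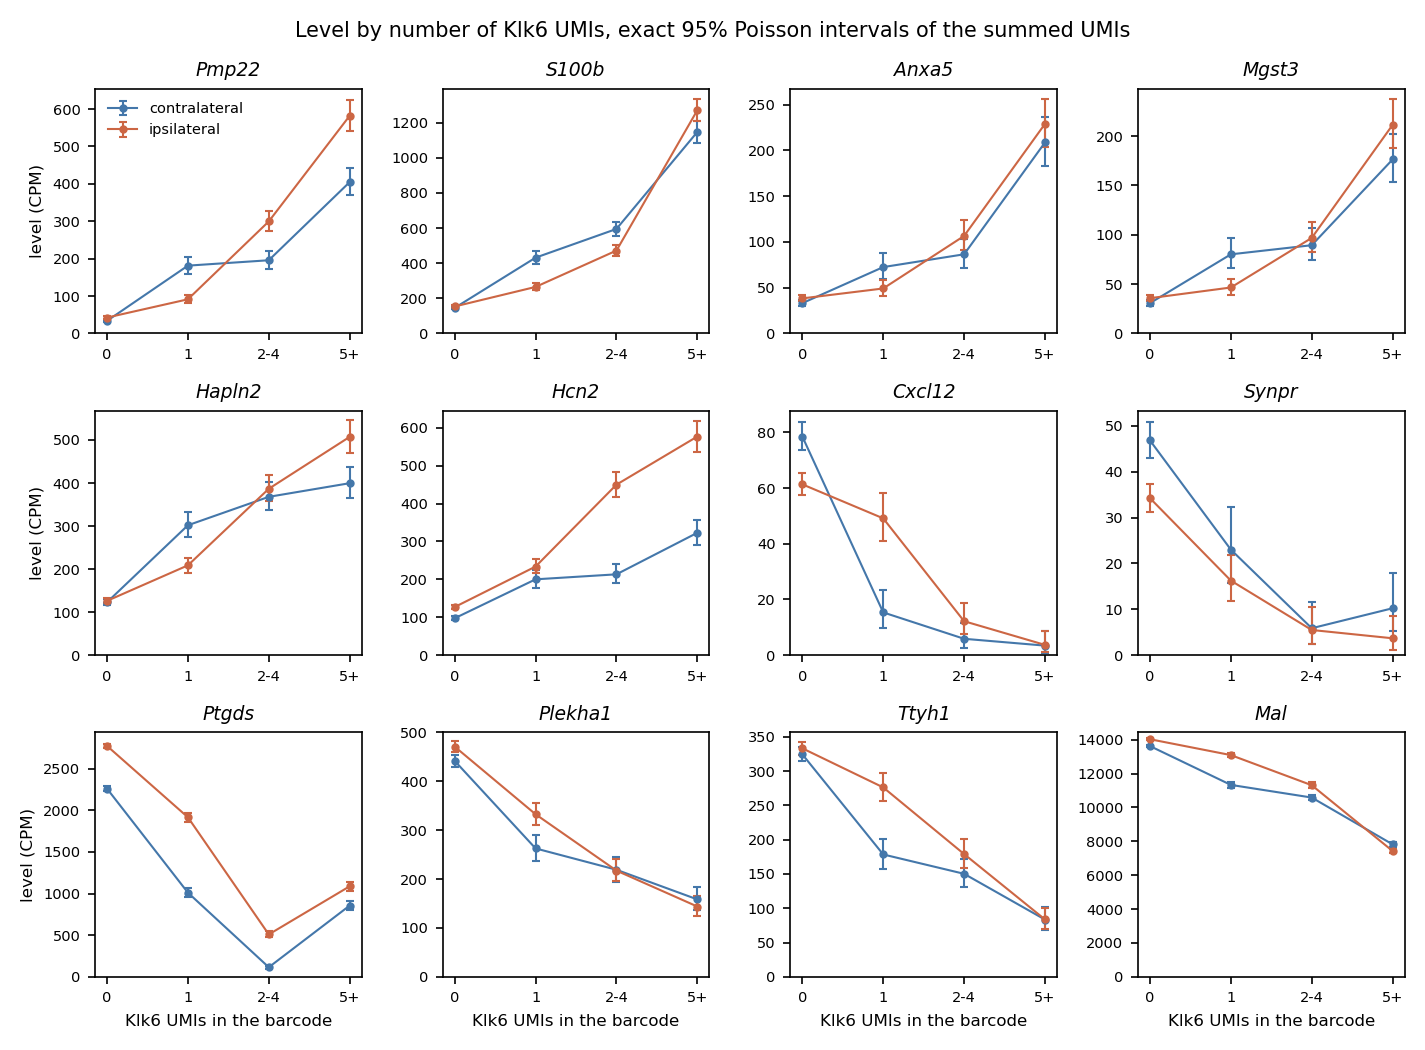
Level (CPM of summed UMIs, vertical axes) of 12 genes in mature barcodes grouped by their Klk6 UMIs (horizontal axes), contralateral in blue and ipsilateral in orange, with exact 95% Poisson intervals. Pmp22, S100b, Anxa5, Mgst3, Hapln2 and Hcn2 stand higher at each step in both libraries, while Cxcl12, Plekha1, Ttyh1 and Mal stand lower at each step. Mal is a gene of the rule.

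Of 22 tested genes of cholesterol synthesis, which supplies the myelin membrane, 0 were called. Ratios were above 0 for 20 of them contralaterally and for 22 ipsilaterally, with medians of 0.28 and 0.26. Hmgcs1, a synthase early in the pathway, had ratios of 0.38 and 0.33, and Sqle, squalene epoxidase, 0.47 and 0.34. Over all genes, 52.77% had a ratio above 0 contralaterally and 54.96% ipsilaterally. Fatty acid genes were nearer to level, with medians of 0.12 in both libraries over 14 genes and Elovl5, an elongase, at 0.73 and 0.49. Nuclear-encoded genes of oxidative phosphorylation had medians of 0.12 and 0.05 over 20 genes.

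Of 19 tested genes of myelin structure, Pmp22 was called higher and Opalin, a sialylated oligodendrocyte membrane protein, lower (-0.88 and -0.71); the medians were 0.03 and 0.02. Lineage transcription factors had medians of -0.09 and -0.06 over 13 genes, with Klf13 lowest (-0.70 and -0.53) and 0 called. Of 16 cytoskeleton genes, Tln2 was called. Lysosome, iron handling and integrated stress response genes had 0 called, with medians between -0.05 and 0.11.

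None (0) of the genes tested in the immediate early, STAT3 and heat shock lists were called. All 14 tested immediate early genes, which are induced fast and briefly by stimuli, had ratios below 0 in both libraries, with medians of -0.49 and -0.35. Btg2, an antiproliferative gene, had ratios of -1.17 and -0.44, Junb, an AP-1 subunit, -0.99 and -0.50, and Zfp36, which destabilizes messenger RNA, -0.74 and -0.57. Of 8 genes of the STAT3 and reactive glia list, 3 lay above 0 ipsilaterally and 0 contralaterally, with a contralateral median of -0.60 and an ipsilateral one of -0.23. Socs3, the feedback inhibitor of STAT3 signalling, had ratios of -0.97 and -0.31. Heat shock genes had medians of -0.15 and -0.11 over 13 genes.

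Genes of newly formed oligodendrocytes stood higher in members in the main setting, but the median of each library changed sign in other settings. The contralateral one did so when barcodes that also held precursor or neuroblast RNA were left out, and when thinned (-0.094). The ipsilateral one did so without doublet calls (-0.13). Of 10 tested, 3 were called higher and 1 lower, with medians of 0.49 and 0.44. Enpp6, a choline phosphodiesterase of newly forming oligodendrocytes, had ratios of 0.73 and 0.67, Itpr2, a calcium release channel, 0.68 and 0.68, and Bmp4, a growth factor of committed precursors, 0.76 and 0.81. Ctps, a CTP synthase, was lower at -0.88 and -0.84. At least 20 UMIs of precursor or neuroblast markers were found in 14 contralateral (11.7%) and 14 ipsilateral members (8.33%), against 9.98% and 5.02% of Klk6-zero barcodes. Without these barcodes, a set chosen after seeing the data, the contralateral median was -0.25 and the ipsilateral one 0.043. Enpp6 then stood at 0.83 and 0.74, Itpr2 at 0.41 and 0.39, and Bmp4 at -0.08 and -0.28. Pmp22 stood at 2.91 and 2.60, S100b at 2.66 and 2.01, and 54 of the 59 higher and 29 of the 36 lower calls were kept.

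**Figure D4:**
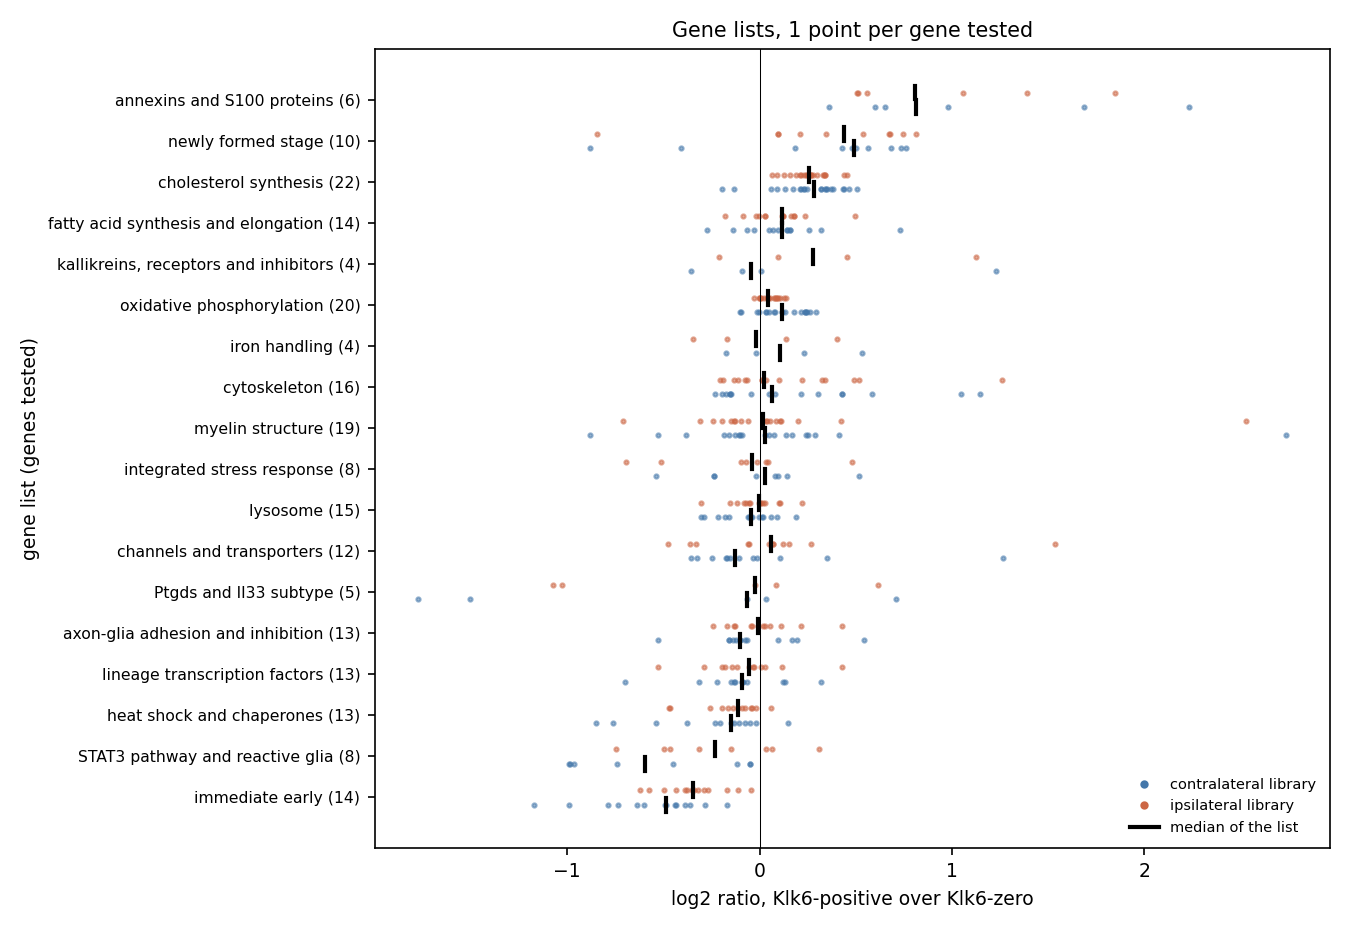
Log2 ratio of Klk6-positive over Klk6-zero barcodes (horizontal axis, after adding 5 CPM) for each tested gene of 18 lists (vertical axis, number of genes tested in brackets). Points are genes, blue for the contralateral and orange for the ipsilateral library, and black bars the list medians, which run from -0.60 contralaterally for the STAT3 and reactive glia list to 0.81 in both libraries for annexins and S100 proteins.

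The antigen presentation genes H2-D1 and B2m and the interferon gene Ifi27 stood higher in members of the injured side than of the opposite side. So did Socs3, Junb and the metallothionein Mt1. Few genes differed by at least 2-fold: of 5721 tested, 9 were called higher (0.157%) and 5 lower (0.0874%) on the ipsilateral side. In Klk6-zero barcodes, 3 of 5720 were called higher (0.0524%) and 5 lower (0.0874%). The median ratio over all genes was -0.03 in both classes. With 1 library per side, injury, dissection and library cannot be told apart.

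H2-D1, a heavy chain of MHC class I, which presents peptides to T cells, stood at 35.0 CPM in contralateral members (29.4 to 41.3) and 166 in ipsilateral ones (156 to 177), a log2 ratio of 2.10 (1.87 to 2.33). In Klk6-zero barcodes it stood at 29.7 and 74.5 CPM, a ratio of 1.20. It had a UMI in 41.7% of contralateral and 70.8% of ipsilateral members, and at 10000 UMIs per barcode in 23.1% and 47.0%. B2m, the light chain, stood at 31.5 and 102 CPM in members (1.56) and at 28.5 and 62.3 in Klk6-zero barcodes (1.004). Within the contralateral library both genes were near level between members and Klk6-zero barcodes, at 0.20 and 0.12, and within the ipsilateral library members were higher, at 1.11 and 0.67. Whether the side difference differs between the classes could not be tested with these libraries. Of the sequence words of H2-D1, 26.7% also occur in other genes, most of them in H2-K1, which stood at 8.56 and 30.1 CPM in members; reads could be split between them. The other 12 genes of the list were too low to be tested, among them the peptide transporter genes Tap1 and Tap2, at or below 2.27 CPM in members. These genes went both ways: H2-K1 was higher ipsilaterally, while Psmb10 stood at 15.6 CPM in contralateral and 13.8 in ipsilateral members.

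Thinning to 10000 UMIs, with the Klk6 classes set again on the thinned counts, left 71 contralateral and 87 ipsilateral Klk6-positive barcodes. Their ratios were 1.39 for H2-D1 and 0.96 for B2m, which then missed the fold. Without barcodes that held a microglia marker UMI, H2-D1 had a ratio of 2.22 and B2m 1.34. Such a UMI was found in 51.7% of contralateral and 46.4% of ipsilateral members, against 34.8% and 38.5% of Klk6-zero barcodes, so these ratios rest on 58 and 90 members. Outside the mature class, H2-D1 stood at 108 and 124 CPM and B2m at 86.2 and 88.5, ratios of 0.19 and 0.03. In mature barcodes with C4b or Serpina3n, H2-D1 stood at 49.9 and 243 CPM (2.17).

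Interferon genes were few above the level needed. Of 20 on the list, 4 were tested and 2 called. The untested ones went both ways. For example, Stat2 stood at 11.3 CPM in contralateral and 16.6 in ipsilateral members, and Ifit2 at 14.8 and 10.3. Ifi27l2a had the largest ratio of all, 3.21, from 29 contralateral to 621 ipsilateral UMIs, but single barcodes held 55.2% of the former and 33.5% of the latter; it was named here after its values were seen. It had a UMI in 4.17% of contralateral members (5 of 120) and 21.4% of ipsilateral ones (36 of 168). Ifi27, of the same family, was spread more evenly and stood at 95.6 and 207 CPM (1.07), with 0.95 in Klk6-zero barcodes. Its ratio outside the mature class was 0.75, so the rise was not particular to members.

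Socs3 stood at 15.9 CPM in contralateral and 65.3 in ipsilateral members (1.75), and at 35.8 and 82.4 in Klk6-zero barcodes (1.10). It was thus higher ipsilaterally in both classes and lower in members than in Klk6-zero barcodes on both sides. Junb stood at 248 and 607 CPM in members (1.27) and 499 and 859 in Klk6-zero barcodes (0.78). Mt1, a zinc-binding stress protein, stood at 489 and 1081 CPM in members (1.14; 0.69 in Klk6-zero barcodes). Outside the mature class, Socs3 had a ratio of 0.90, Junb 0.43 and Mt1 -0.14. All 14 immediate early genes had ratios above 0 in members, with a median of 0.39, against 13 of 14 and 0.25 in Klk6-zero barcodes, and 1 was called. Of all genes tested, 43.5% had a ratio above 0 in members and 38.6% in Klk6-zero barcodes.

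Apoe, the main lipid carrier of the brain, stood at 85.1 and 193 CPM (1.14; 0.54 in Klk6-zero barcodes). Without barcodes that held a UMI of a microglia marker, its ratio was 0.72 and missed the fold. Tma16, the last called gene, had a ratio of 1.05, and 1 ipsilateral barcode held 20.1% of its UMIs. Just below the fold, Neat1, a long noncoding RNA, had a ratio of 0.99 and Ptgds 0.99, from 658 to 1315 CPM, against 0.29 in Klk6-zero barcodes. Outside the mature class, Ptgds had a ratio of 0.73, from 62.5 to 107 CPM.

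Genes that marked the members did not differ between sides past the fold. Ratios were 0.09 for Pmp22, -0.31 for S100b, -0.11 for Anxa5, -0.09 for Hapln2 and 0.64 for Hcn2. Of 22 cholesterol genes, 11 lay above 0, where 43.5% of all genes tested did. Myelin structure genes had a median of 0.07 over 19, and 0 of either list were called.

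The 5 genes called lower on the ipsilateral side were Ccnd2, Sox11, Rps27rt, Wdr89 and Rpl10-ps3, named after their values were seen except Wdr89. In contralateral members 1 barcode held 70.3% of the UMIs of Ccnd2, a cyclin, and 1 held 46.2% of those of the neuroblast transcription factor Sox11. Wdr89 stood at 59.7 and 25.9 CPM (-1.06) and was lower ipsilaterally in Klk6-zero barcodes (-0.77) and outside the mature class too (-0.66). Below the fold, Samd1, Nutf2 and Nme2 had ratios of -0.93, -0.90 and -0.82 in members and -0.62, -0.73 and -0.82 outside the mature class. Nme2 and Nutf2 share 47.9% and 43.4% of their sequence words with other genes. Tnr, Opcml, Rtn1 and Sox6, which precursors also express, had ratios between -0.86 and -0.71; without barcodes holding precursor or neuroblast markers, they were 0.31, -0.18, 0.38 and 0.07. The part of mixed barcodes in these values was not tested further.

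**Figure D5:**
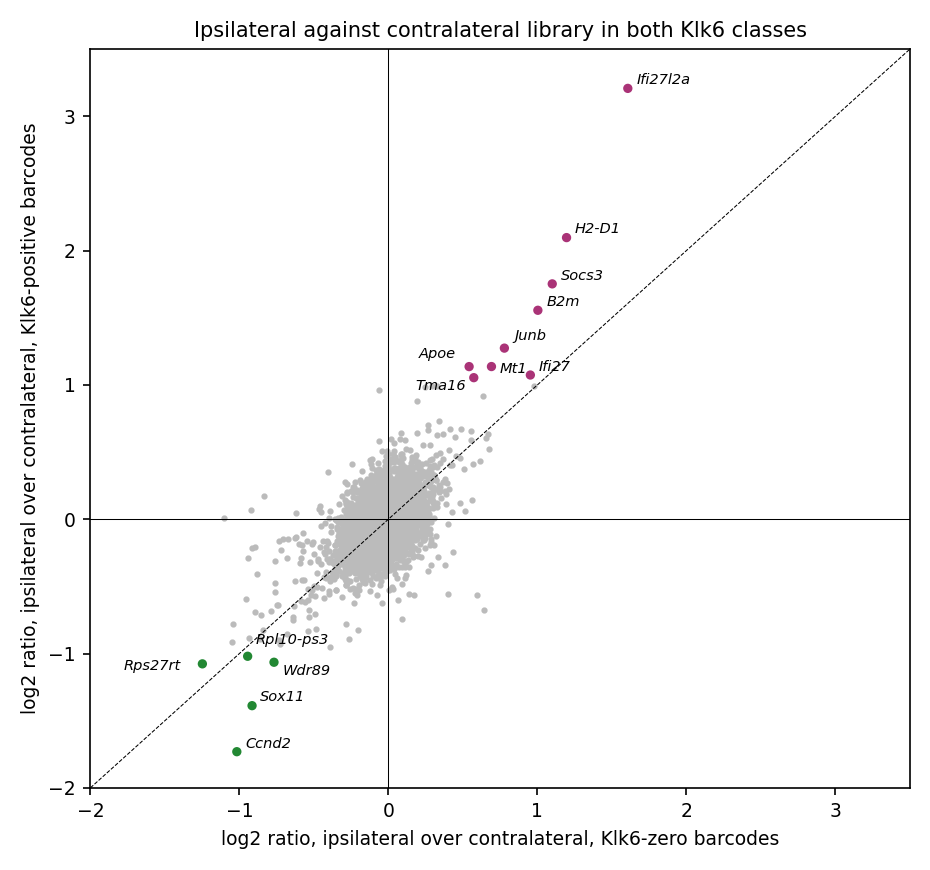
Log2 ratio of the ipsilateral over the contralateral library for each gene tested, in Klk6-zero barcodes (horizontal axis) and in Klk6-positive barcodes (vertical axis), after adding 5 CPM. Purple and green points are the 9 genes called higher and the 5 called lower in Klk6-positive barcodes, and the dashed line marks equal ratios; H2-D1 lies at 1.20 and 2.10 and B2m at 1.004 and 1.56.

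Among markers of other cell types, those of earlier stages of the lineage had the highest sums in members, and neuroblast and astrocyte markers came next. Microglia, astrocyte and neuroblast sums were higher in members than in Klk6-zero barcodes in both libraries. Microglia markers (10 genes) summed to 24.7 and 22.2 CPM, against 15.5 and 19.4 in Klk6-zero barcodes, with the defining receptors Csf1r and Cx3cr1 at 0 in both libraries. Endothelial markers summed to 27.7 and 20.5 CPM and mural markers to 2.27 and 1.75. Astrocyte markers summed to 122 and 128 CPM, against 117 and 101, led by Slc1a3, with the water channel gene Aqp4 at 0 in contralateral members. Committed-stage markers summed to 1291 and 1172 CPM, against 941 and 884, and precursor markers to 496 and 395, against 492 and 264. Neuroblast markers summed to 144 and 63.2 CPM, against 75.9 and 51.8. Their medians per barcode were 35.9 and 31.9 CPM in members, against 34.5 and 18.7. Of their leading gene Sox11, 1 contralateral member held 46.2% of the UMIs. Doublet calls by Scrublet covered 3 contralateral (2.50%) and 13 ipsilateral members (7.74%). Among Klk6-zero barcodes they covered 0.973% and 4.83%, and among all barcodes that passed the filters 0.732% and 4.03%. The score threshold was set per library, at 0.274 and 0.154, so these shares are not on an equal scale between the sides. In barcodes, as in bulk sums, RNA of a second cell in the droplet and RNA of the cell itself cannot be told apart.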

How the data were processed

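Droplet single-cell libraries of 1 pool of 3 animals per side were used. The deposited values are raw UMI counts per gene and barcode, made by the authors with Cell Ranger 3.1.0 on mm10, per the submitters' processing notes. For alignment options and annotation, nothing was given in the sources used here. The members and gene lists were chosen with earlier results of these data known. Barcodes were filtered and classed as the report states, without removing doublets. Counts were summed per library and class and scaled to CPM; genes were tested with at least 50 summed UMIs and a mean of at least 20 CPM (Python 3.11.15, numpy 2.4.6, scipy 1.17.1). Ratios carry 5 added CPM, which draws low genes toward 0. Named genes are the 12 with the largest ratio each way (for the classes, by the mean of both libraries), leaving out mitochondrial, ribosomal, predicted and rule genes and those with over 25% of UMIs in 1 barcode of the class where the gene is higher; marker and subtype genes and up to 4 members per list were added; a few genes that this rule names are not reported here. Sequence sharing is the share of 31-base words of a gene that also occur in other genes (GENCODE M21, GRCm38). Steps were tested on simulated data. Alternatives were other thresholds, thinning, doublet calls (Scrublet, scanpy 1.11.5), added CPM, filters and weights. For gene ratios in the thinned setting, the Klk6 classes were set again on the thinned counts.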

Additional observations from a re-analysis of the deposited data

Results flagged for a closer look

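Klk6 also appeared in barcodes that the comparisons did not use. Outside the mature class, 3.13% of ipsilateral barcodes had a Klk6 UMI (95% interval 2.29 to 4.17), against 0.456% contralaterally (0.168 to 0.990), and after thinning to 10000 UMIs 2.03% against 0.424%. With at least 2 Klk6 UMIs, the share was 0.209% (3 of 1438) against 0% (0 of 1315), so nearly all of these barcodes held 1 UMI. In barcodes with precursor markers, 3.89% (19 of 488) against 0.282% (1 of 354) had a Klk6 UMI. In those with neuroblast markers, 2.16% (10 of 463) against 0.202% (1 of 495) did. The source of these UMIs was not tested. In mature barcodes with C4b or Serpina3n, 47.6% of ipsilateral barcodes had a Klk6 UMI, against 28.4% contralaterally, a difference of 19.3 points (5.88 to 30.9), and 32.6% against 17.9% after thinning. Both were singled out because the signal lay in barcodes outside the main measurement and above the level in the contralateral library.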

How the results depend on the processing

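No paired analysis was possible because each side is 1 library; for the same reason no replicate could be left out. Of 62 alternative values of the 4 counts of calls and the share difference, 42 moved by less than 1.5 times or less than counting error, and 20 moved more. All 24 genes named between the Klk6 classes had the same sign in all 14 alternative settings, and 19 of the 24 named between sides had it in all 13. These genes were picked for large ratios, and the settings reuse the same libraries, so a kept sign is no separate support. The count of genes higher in members was 115 with at least 2 Klk6 UMIs, 37 with 20 CPM added, and 98 with a minimum of 20 UMIs and no CPM minimum. The count lower was 83, 20 and, thinned, 56, and 20 with minimums of 100 UMIs and 50 CPM. Of the 59 higher and 36 lower calls, thinning kept 45 and 26, C4b and Serpina3n barcodes kept 45 and 22, microglia-marker barcodes left out 47 and 22, and 20 CPM added 37 and 20.

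Between sides, genes higher were 23 with C4b and Serpina3n barcodes kept, 15 when thinned and 15 with a minimum of 20 UMIs; of the 9 main ones, 5 were kept when thinned and 6 without microglia-marker barcodes. Genes lower were 11 at a maturity of 80, 41 without doublet calls, 0 with C4b and Serpina3n barcodes kept, 33 without microglia-marker barcodes, 9 with 1 CPM added, 2 with 20 CPM added, 11 with a minimum of 20 UMIs, 0 with 100 UMIs, and 2 without precursor- or neuroblast-marker barcodes; the 5 lower calls therefore depend on the setting. The share difference of 1.20 points was 8.62 with C4b and Serpina3n barcodes kept, -0.72 with at least 2 Klk6 UMIs and -0.44 thinned, the last pair with intervals that include 0.

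Reversed values: the newly formed stage median between classes was -0.13 ipsilaterally without doublet calls, and contralaterally -0.094 thinned and -0.25 without mixed barcodes; between sides it was 0.40 and 0.30. The committed marker median was -0.080, -0.056 and -0.10 in these settings, and 0.17 and 0.45 between sides. Bmp4 was -0.44 without doublet calls, -0.094 thinned, and -0.079 and -0.28 without mixed barcodes. The ipsilateral STAT3 list median was 0.028 with C4b and Serpina3n barcodes kept, the contralateral channel median 0.018 thinned, and the iron handling median between sides -0.12 with a minimum of 20 UMIs and -0.047 without mixed barcodes. The cause was not tested.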
